A study of Mus musculus with 2 samples.

Results

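Conjugating, esterase and aldehyde-oxidizing enzymes convert reactive or fat-soluble compounds into products that are easier to excrete or less reactive. Genes were taken by symbol: those that begin with Gsta, Gstm, Gstp, Gstt, Gsto, Gstk, Mgst, Ugt1, Ugt2, Sult, Ces, Fmo, Aldh, Ephx or Aox, or with Nat and a digit, without Aldh1a1, Aldh1a2, Aldh1a3, Aldh1a7 and Aldh18a1. This gave 109 of the 19532 genes measured. One of them, Fmod, matches by its letters only: it encodes fibromodulin, a matrix proteoglycan, and was kept apart, which left 108 enzyme genes. These 108 include 9 other Nat symbols that lie outside the arylamine N-acetyltransferases. Fmod itself was lower in lung, at -3.79 on lung replicate 1 and -4.01 on lung replicate 2.

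The study set 2 samples of uncultured, untreated mouse lung (replicates 1 and 2, labelled with Cy3) against cultured mouse embryonic fibroblasts (MEF, labelled with Cy5), 1 pair per two-colour Agilent array. MEF were grown in DMEM with fetal bovine serum and non-essential amino acids. Strain, age and genotype are not given in the labels, nor whether the lung samples came from separate animals, so p-values measure only the spread between these 2 samples, which may be technical. Dyes were not swapped, and a dye effect cannot be told apart from the tissue difference. Every value below is a deposited log ratio, read as log2 and as lung over MEF, so that 1 is a 2-fold higher and -1 a 2-fold lower signal in lung; pairs of values are replicate 1, then replicate 2. The base and the direction are not stated. The direction rests on the study's design text, which describes lung relative to MEF, and on 11 measured lung-restricted genes such as Sftpc and Scgb1a1, whose 22 values were all above 0. It is therefore an assumption. In whole tissue, fewer cells of a type and less RNA per cell cannot be told apart.

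Glutathione transferases attach glutathione to electrophiles, UDP-glucuronosyltransferases attach glucuronic acid, sulfotransferases attach sulfate, and arylamine N-acetyltransferases attach an acetyl group. Carboxylesterases cut esters, epoxide hydrolases open epoxides, flavin monooxygenases oxidize nitrogen and sulfur atoms, and aldehyde dehydrogenases and aldehyde oxidases turn aldehydes into acids. In lung, club cells and type 2 cells are known sites of such enzymes. Several of the genes are known targets of Nrf2 (Nfe2l2), which binds antioxidant response elements, and of the aryl hydrocarbon receptor (Ahr), which binds xenobiotic response elements.

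Promoter windows of 300 bases (250 before to 50 after the gene's start, RefSeq, GRCm38.p6, the first window listed where a gene had several) were matched by symbol for 89 of the 108 enzyme genes. The letters TGACNNNGC, the core of the antioxidant response element, occurred on either strand in 4 of the 89 windows (4.49%), against 12.5% of the windows of all 27025 genes with one. Those 4 were Gsta3, Mgst1, Gstm5 and Aldh9a1. The xenobiotic response element core GCGTG occurred in 20 of the 89 (22.5%), against 32.5% of all. The 250 bases before the start are shown for the 3 holders of TGACNNNGC that differed 2-fold from MEF, with the matching bases in capitals. Gsta3 lies at chr1:21240335-21240584, plus strand, Mgst1 at chr6:138140277-138140526, plus strand, and Gstm5 at chr3:107895604-107895853, plus strand.
Gsta3: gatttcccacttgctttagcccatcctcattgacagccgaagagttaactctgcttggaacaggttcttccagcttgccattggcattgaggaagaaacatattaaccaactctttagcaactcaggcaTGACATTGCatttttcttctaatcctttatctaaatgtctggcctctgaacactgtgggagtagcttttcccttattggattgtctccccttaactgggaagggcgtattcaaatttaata
Mgst1: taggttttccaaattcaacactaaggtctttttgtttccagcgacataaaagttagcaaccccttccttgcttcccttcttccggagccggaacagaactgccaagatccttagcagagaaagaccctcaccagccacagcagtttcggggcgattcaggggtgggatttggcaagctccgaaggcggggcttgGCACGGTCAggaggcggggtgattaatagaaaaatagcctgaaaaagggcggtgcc
Gstm5: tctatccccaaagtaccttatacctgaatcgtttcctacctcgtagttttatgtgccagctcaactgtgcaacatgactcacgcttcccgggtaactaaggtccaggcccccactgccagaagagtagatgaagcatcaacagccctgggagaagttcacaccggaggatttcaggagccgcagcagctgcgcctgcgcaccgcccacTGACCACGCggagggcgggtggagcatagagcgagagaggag
The match ended 112 bases before the start in Gsta3, 47 before it in Mgst1, where it reads on the opposite strand, and 33 before it in Gstm5. Of these genes, Gsta3 and Mgst1 were higher in lung and Gstm5 was lower, so the letters were found on both sides. CG pairs were counted in the same windows, a count added after the values were seen: the median was 4 in the 31 windows of genes 2-fold higher in lung, 14 in the 7 windows of genes 2-fold lower, 4 in the 51 windows of the other enzyme genes and 7 over all genes. Gstm1 (chr3:108017974-108018223, minus strand) and Gstm4 (chr3:108044860-108045109, minus strand) are neighbours with opposite ratios, and are shown with each CG in capitals.
Gstm1: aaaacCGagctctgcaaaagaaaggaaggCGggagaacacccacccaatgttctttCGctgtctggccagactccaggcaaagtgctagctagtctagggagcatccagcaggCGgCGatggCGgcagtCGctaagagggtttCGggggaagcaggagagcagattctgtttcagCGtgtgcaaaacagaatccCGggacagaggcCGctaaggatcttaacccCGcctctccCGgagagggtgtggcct
Gstm4: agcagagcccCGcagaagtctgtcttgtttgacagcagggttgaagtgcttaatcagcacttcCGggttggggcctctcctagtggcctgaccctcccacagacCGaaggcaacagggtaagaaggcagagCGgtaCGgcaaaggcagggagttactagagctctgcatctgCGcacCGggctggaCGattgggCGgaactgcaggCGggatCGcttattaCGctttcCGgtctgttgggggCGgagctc
These stretches hold 13 and 14 CG pairs. Gstm1 stood at 4.25 and Gstm4 at -1.38 in mean log2 ratio, so this count did not separate the neighbours. A match of letters is a description of the window and not evidence of binding.

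The enzyme genes stood higher in lung than genes in general. On both arrays 42 of the 108 (38.9%) were at least 2-fold higher in lung, against 17.1% of all genes, and 10 (9.26%) were at least 2-fold lower, against 15.4%. At least 16-fold higher on both arrays were 17 of them, against 2.96% of all genes, a threshold chosen after the values were seen. The median log2 ratio was 0.51, beside -0.21 over all genes. By limma's moderated test against 0 (Benjamini-Hochberg adjusted p below 0.05 over all 19532 genes), 59 were higher, against a background of 32.6%, 23 were lower, against 43.6%, and 26 did not pass. As a scale for small ratios, the 1044 measured genes for odorant and pheromone receptors were used, because nose tissue is the usual site of their RNA. Of these receptor genes, 547 (52.4%) passed as lower and 63 (6.03%) as higher, with a median of -0.42. A small ratio that passes as lower therefore does not set a gene apart from them. The central 95% of these genes spanned -1.39 to 1.22 (replicate 1) and -1.44 to 1.24 (replicate 2), called the receptor range. Above it on both arrays lay 40 of the enzyme genes, against 14.6% of all genes, and below it lay 4, against 8.91%, so that 64 lay inside it on at least 1 array. With each array centred on the receptor genes, 72 passed as higher (46.7% of all genes did) and 13 as lower (26.8% of all genes), and 4 were 2-fold lower (8.98% of all genes). Without moderation 34 passed as higher and 4 as lower, against 12.5% and 16.2% of all genes.

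**Figure D1:**
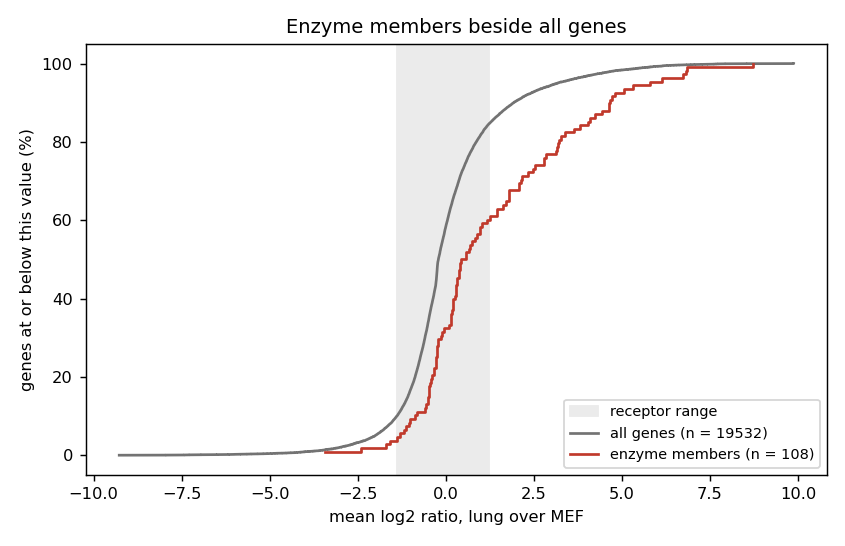
Cumulative share of genes (vertical axis, percent) at or below a mean log2 ratio of lung over MEF (horizontal axis) for the 108 enzyme genes and all 19532 genes; the grey band is the receptor range common to both arrays. The curve of the enzyme genes lies to the right of that of all genes, with medians of 0.51 and -0.21.

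Of the 108 enzyme genes, 103 had the same sign on both arrays, as did 18380 of all 19532 genes. The median SD between the arrays was 0.0849 for the enzyme genes and 0.057 over all genes. Only Ces3b (0.33 and -0.87) and Sult3a2 (-0.21 and 0.82) differed by more than 1, both within the receptor range. Probes of a gene were averaged, and 32 of the 108 had more than 1 probe. No enzyme gene had probes at least 2-fold apart from MEF in opposite directions.

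**Figure D2:**
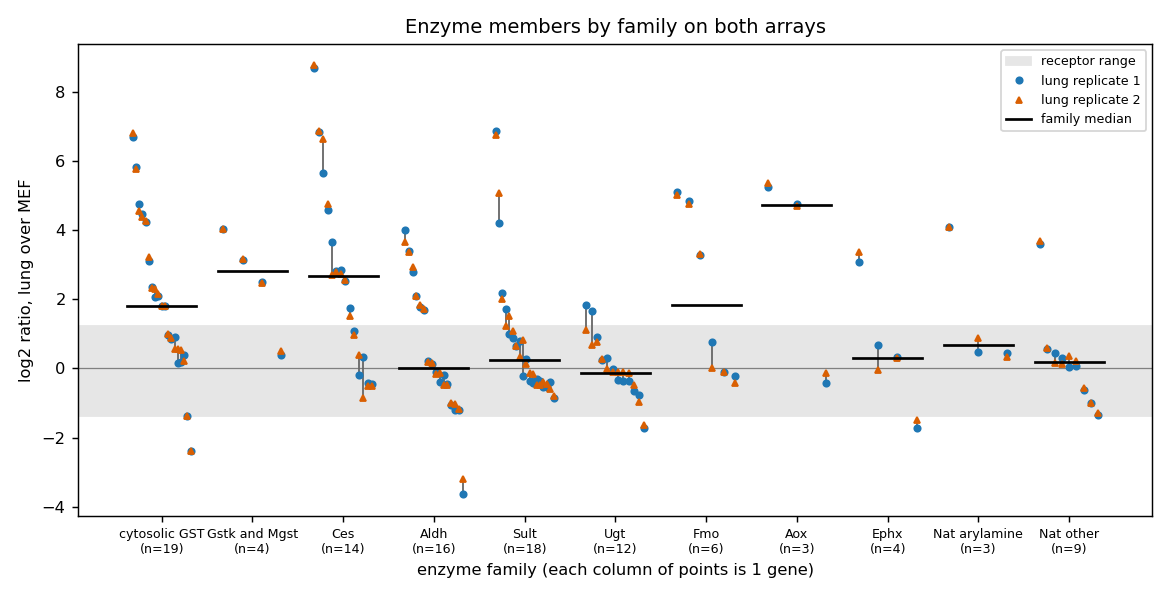
Log2 ratio of lung over MEF (vertical axis) for each enzyme gene on lung replicate 1 (circles) and lung replicate 2 (triangles), by family (horizontal axis), with the family median as a black bar and the receptor range in grey. Medians run from -0.14 in the UDP-glucuronosyltransferases to 4.73 in the aldehyde oxidases, and most families hold genes both above and within the grey band.

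Carboxylesterases held the enzyme gene furthest above MEF. Of 14 measured, 9 (64.3%, against 17.1% of all genes) were at least 2-fold higher on both arrays and 0 were 2-fold lower (against 15.4%), with a median of 2.66. Ces1d, which encodes a triacylglycerol hydrolase of the endoplasmic reticulum, was at 8.67 and 8.76, a mean of 8.72 ± 0.06 (SD, n = 2) and the 5th highest of all genes. That is 420.5-fold, and the limma adjusted p was 0.00161. Ces1f was at 6.84 and 6.86 (115-fold, adjusted p = 0.00161 by limma). Ces1e was at 4.59 and 4.74. Both arrays thus placed these neighbours in the same order. Ces1g, a lipid-hydrolysing esterase of mouse liver, was at 3.65 and 2.71, one of the wider gaps between the arrays, with probes at 2.24 and 4.12. Ces1b was at 2.84 and 2.73. Ces1c, the esterase that mouse liver secretes into plasma, was at 2.52 and 2.56, but 1 of its 2 probes lay at 0.05 and 0.11 and the other at 4.99 and 5.02, so its mean is uncertain. All 6 measured Ces1 genes were thus at least 2-fold higher, whereas the Ces2 genes ranged widely. The Ces2 group favours esters with a small acyl part. Ces2g was at 5.66 and 6.63 (mean 6.14 ± 0.69, 70.7-fold, adjusted p = 0.00446 by limma), higher on replicate 2. Ces2e was at 2.83 and 2.77, with probes at 1.09 and 4.51. Ces2b was at 1.74 and 1.52. Ces2a passed the test at 1.09 and 0.97, just short of 2-fold on replicate 2. Ces2f (-0.42 and -0.51) and Ces4a (-0.46 and -0.50) passed as lower inside the receptor range, the latter not with receptor centring (mean -0.07), and Ces5a and Ces3b did not pass. Probes of the Ces1 and Ces2 genes may share signal, since these paralogs are close copies.

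Cytosolic glutathione transferases were mostly higher, with 11 of 19 (57.9%) higher by 2-fold or more on both arrays and 2 (10.5%) lower by that much (median 1.80). Those shares stand beside 17.1% and 15.4% of all genes. All 4 alpha-class genes were higher. Gsta3, which in mouse conjugates the epoxide of aflatoxin, was at 6.68 and 6.80 (mean 6.74 ± 0.08, 107-fold, adjusted p = 0.00161 by limma). Its 2 probes lay at 5.41 and 8.06. Gsta1 was at 5.82 and 5.76 (55.4-fold, adjusted p = 0.00161 by limma), and its near-copy Gsta2 was at 4.46 and 4.38, and a probe may not separate them. Gsta4, which conjugates the lipid peroxidation product 4-hydroxynonenal, was lower than these at 2.36 and 2.33. The theta class was uniform. Gstt1 was at 1.80 and 1.81, Gstt2 at 2.10 and 2.16, Gstt3 at 1.79 on both arrays and Gstt4 at 2.05 and 2.28. These 4 means spanned only 1.79 to 2.17.

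The mu class, by contrast, split in both directions. Gstm3 was at 4.75 and 4.54. Gstm1, a major hepatic form, was at 4.23 and 4.27. Gstm2 was at 3.11 and 3.22. These 3 lay above the receptor range, while Gstm6 (0.90 and 0.57) and Gstm7 (0.39 and 0.22) passed the test inside it. Gstm5 was lower in lung at -2.40 and -2.39 (mean -2.40 ± 0.0096, 5.26-fold lower, adjusted p = 0.00163 by limma). Gstm4 was lower at -1.38 on both arrays (adjusted p = 0.00188 by limma), and lay just inside the receptor range. The pi-class gene Gstp1 was at 0.86 and 0.89, and the omega-class gene Gsto1, which also reduces dehydroascorbate, was at 0.97 and 0.99. Both passed the test below 2-fold, and Gstp3 and Gsto2 did not pass.

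All 4 genes of the mitochondrial kappa class and the membrane-bound transferases passed as higher, against 32.6% of all genes. Mgst1, found in the endoplasmic reticulum and the outer mitochondrial membrane, was at 4.03 on both arrays. Gstk1 was at 3.12 and 3.15. Mgst2, which can also make leukotriene C4, was at 2.48 and 2.46. Only Mgst3 stayed within the receptor range, at 0.38 and 0.51, with probes from -0.27 to 1.02.

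Among 18 sulfotransferases, 4 (22.2%) were at least 2-fold higher on both arrays, near the 17.1% of all genes. None was 2-fold lower, against 15.4% of all genes (median 0.26). Sult1a1, which sulfates phenols, was at 6.86 and 6.76 (mean 6.81 ± 0.07, 112-fold, adjusted p = 0.00161 by limma). Sult1d1, which sulfates catecholamines in mouse, was at 4.21 and 5.07. Both stood far above the other sulfotransferases. Sult5a1 was at 2.17 and 2.01. Sult2a6, of the group that sulfates hydroxysteroids, was at 1.71 and 1.21 and thus touched the receptor range on replicate 2. Sult2a4 passed at 1.00 and 1.51, a little under 2-fold on replicate 1, and Sult1b1 and Sult2a8 also passed as higher. Sult2a7, at -0.85 and -0.81, was the lowest, and Sult1c1, Sult1e1 (the estrogen sulfotransferase), Sult3a1, Sult4a1 and Sult6b1 passed as lower, all inside the receptor range. Of the receptor genes, 52.4% passed as lower too. Sult1c2, Sult2a3, Sult2a5, Sult2b1 and Sult3a2 did not pass.

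The median of the 12 measured UDP-glucuronosyltransferases, -0.14, lay near that of all genes (-0.21). Of them, 1 (8.33%) was higher by 2-fold or more on both arrays and 1 (8.33%) lower by that much. Over all genes the shares were 17.1% and 15.4%. Ugt1a6b, of the group that conjugates small phenols, was at 1.82 and 1.10, with probes at -0.01 and 2.93 and an adjusted p of 0.0301 by limma. Ugt1a9 was lower at -1.73 and -1.65 (mean -1.69 ± 0.06, adjusted p = 0.00204 by limma). Transcripts of the Ugt1a locus share their last exons, so probes may not separate them. Ugt1a1, which conjugates bilirubin, did not pass, at 0.30 and -0.02. Ugt2a3, at 1.66 and 0.67, did not pass either (adjusted p = 0.079 by limma). Of the Ugt2b genes, Ugt2b34 and Ugt2b35 passed as higher and Ugt2b37 and Ugt2b38 as lower, while Ugt2b1, Ugt2b5 and Ugt2b36 did not pass, nor did the olfactory Ugt2a1. None of the 9 Ugt2 genes lay outside the receptor range on both arrays.

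Flavin monooxygenases and aldehyde oxidases each held a clearly separated high group. Fmo1 was at 5.09 and 5.03 (33.3-fold, adjusted p = 0.00161 by limma), with its probes at 2.19 and 7.93. Fmo2, the form known as the main one in the lung of many mammals, was at 4.84 and 4.76 (27.9-fold, adjusted p = 0.00161 by limma), with probes from 3.84 to 5.34. Fmo5 was at 3.27 and 3.30. The other 3 of 6 lay inside the receptor range: Fmo4 passed as lower at -0.23 and -0.42, though not with either centring, and Fmo6 (0.76 and 0.02) and Fmo9 did not pass. Among the aldehyde oxidases, Aox3 was at 5.24 and 5.37 (39.5-fold, probes at 4.50 and 6.11) and Aox1 was at 4.76 and 4.70 (26.6-fold), each with adjusted p = 0.00161 by limma. Aox4, known from the Harderian gland in mouse, was at -0.42 and -0.13 and did not pass.

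Aldehyde dehydrogenases split, with 6 of 16 (37.5%) higher by 2-fold or more, 4 (25%) lower by that much and a median near 0. Those shares stand beside 17.1% and 15.4% of all genes. The Aldh3 genes, whose enzymes oxidize medium- and long-chain aldehydes, made up most of the higher group. Aldh3a1, abundant in the cornea, was at 3.99 and 3.65. Aldh3b1 was at 3.38 on both arrays. Aldh3b2 was at 2.79 and 2.92. Aldh3a2, the fatty aldehyde dehydrogenase, was lower than these at 1.78 and 1.83. Aldh3b3 (-0.40 and -0.12) did not pass, so 4 of the 5 Aldh3 genes were 2-fold higher. Aldh6a1, of valine breakdown, was at 2.08 on both arrays. Aldh2, the mitochondrial enzyme that oxidizes acetaldehyde, was at 1.68 and 1.71. Both are mitochondrial, as are some of the lower genes. Aldh1l2, the mitochondrial 10-formyltetrahydrofolate dehydrogenase, was the lowest enzyme gene at -3.64 and -3.21 (mean -3.42 ± 0.30, 10.7-fold lower, adjusted p = 0.00339 by limma), with 3 probes at -5.72, -4.37 and -0.18. Its cytosolic counterpart Aldh1l1 was at 0.22 and 0.19. Aldh7a1, of lysine breakdown, was lower at -1.20 and -1.18, inside the receptor range, with probes at -2.73 and 0.35. Aldh16a1 (-1.21 and -1.04) and the mitochondrial Aldh1b1 (-1.07 and -1.01) lay just past 2-fold and inside the receptor range. Aldh4a1 passed as higher and Aldh8a1 as lower below 2-fold, and Aldh5a1 and Aldh9a1 did not pass.

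The 4 epoxide hydrolases spread over both directions. Ephx4 was at 3.09 and 3.36. Ephx2, the soluble hydrolase of fatty acid epoxides, was lower at -1.71 and -1.48 (mean -1.59 ± 0.16, adjusted p = 0.00433 by limma). Ephx1, the microsomal hydrolase of xenobiotic epoxides, passed at only 0.32 and 0.30, and Ephx3 (0.67 and -0.05) did not pass. Of the 3 arylamine N-acetyltransferases, Nat3 stood apart at 4.09 and 4.07. Nat1 (0.47 and 0.88) and Nat2 (0.45 and 0.33) passed inside the receptor range. The other 9 genes with a Nat symbol lie outside the arylamine N-acetyltransferases. They are counted in the 108, and Nat9 and Nat10 in the 10 that were 2-fold lower. Among them Nat8f5, of the Nat8 group, was at 3.59 and 3.67. Nat9 was lower at -1.35 and -1.28, and Nat10, which acetylates cytidine in RNA, was lower at -1.02 and -1.01. Both lay inside the receptor range. Nat8f1 passed as higher and Nat14 as lower, and Nat8, Nat8f2, Nat8f4 and Nat8l did not pass.

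**Figure D3:**
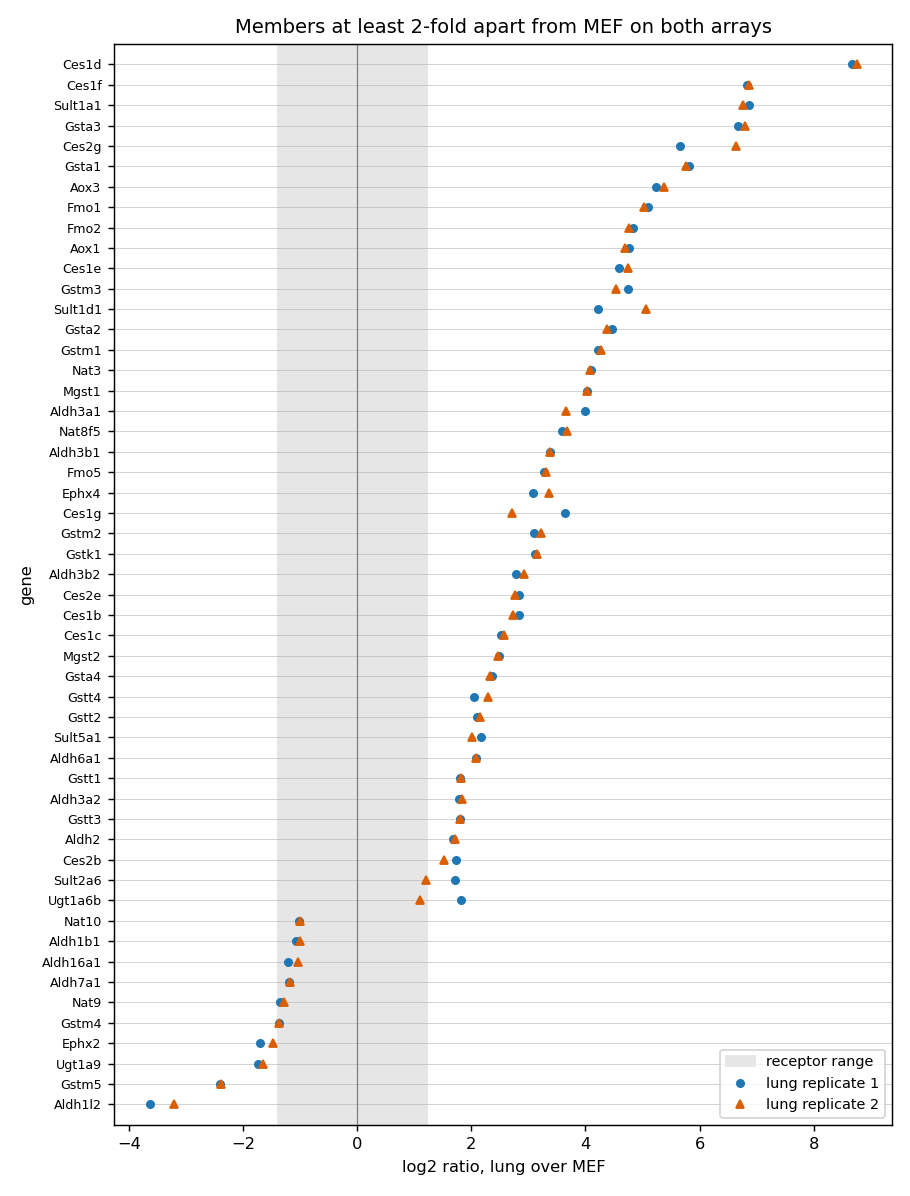
Log2 ratio of lung over MEF (horizontal axis) for the 52 enzyme genes at least 2-fold apart from MEF in the same direction on both arrays (vertical axis), with lung replicate 1 as circles, lung replicate 2 as triangles and the receptor range in grey. The 2 arrays lie close together for most genes, and the widest gaps are those of Ces2g, Ces1g and Sult1d1.

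In several places, neighbouring family members differed in their ratios. Members of 1 family no more than 5 protein-coding genes apart in the RefSeq gene table (GRCm38.p6, used for gene order only) were set side by side, a grouping chosen after the values were seen. The rows described and plotted were picked from a longer set with the values known. Among those left out, Gsto1 with Gsto2, Gstp1 with Gstp3 and the 9 Ugt2 genes held no gene outside the receptor range on both arrays. The row of Gsta4, Gsta1 and Gsta2, also left out, was higher throughout. On chromosome 3 the order was Gstm5, Gstm7, Gstm6, Gstm3, Gstm2, Gstm1 and Gstm4, so the lower genes Gstm5 and Gstm4 stood at the ends and the 3 highest genes next to each other. On chromosome 8, Ces1b to Ces1g were all higher while Ces5a, at the end of the row, was at -0.20 and 0.39. Also on chromosome 8, Ces2g lay between Ces2f and Ces3b, which were within the receptor range. On chromosome 1, Fmo1 and Fmo2 were high between Fmo4 and Fmo6, and Aox1 and Aox3 were high beside Aox4. Sult1d1 on chromosome 5 was high between Sult1b1 (0.87 and 1.08) and Sult1e1 (-0.54 and -0.40). The Gstt row on chromosome 10 was the one plotted in which every gene had a similar ratio.

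**Figure D4:**
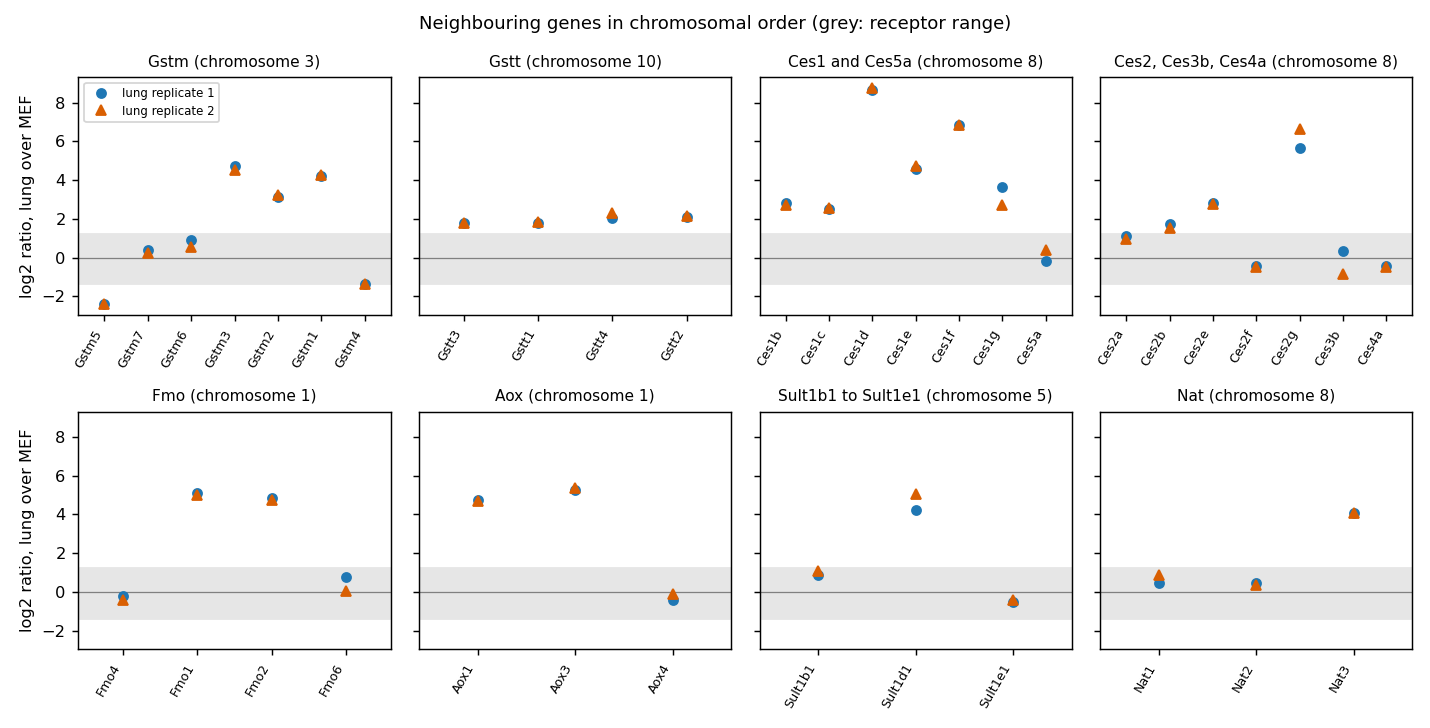
Log2 ratio of lung over MEF (vertical axis) for chosen rows of neighbouring family members in their order along the chromosome (horizontal axis, order only), with lung replicate 1 as circles, lung replicate 2 as triangles and the receptor range in grey. In the Gstm row the mean log2 ratios run from -2.40 to 4.64, while the 4 Gstt genes lie between 1.79 and 2.17.

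Genes that supply or accompany these enzymes were taken from 5 lists, whose counts stand beside 32.6% of all genes passing as higher, 43.6% as lower and a median of -0.21. In the glutathione list, 6 of 12 measured genes passed as higher and 3 as lower (median 0.19). Gclc, the catalytic subunit of glutamate-cysteine ligase, the rate-limiting enzyme of glutathione synthesis, was at 3.61 on both arrays. Its modifier subunit Gclm was at 1.33 and 1.27, and glutathione reductase (Gsr) was at 1.87 and 1.86. Glutathione synthetase (Gss), which carries out the last step of synthesis, did not pass at -0.04 on both arrays, nor did Glrx and Txnrd1. Higher were also Ggt5 (2.32 and 2.12) and Oplah (2.08 and 2.00). Lower were the cystine transporter Slc7a11 (-2.41 and -1.88), the cysteine-making Cth (-2.18 and -2.12) and the glutathione-degrading Chac1 (-3.44 and -3.38). In the donor list for sulfate and glucuronate, 2 of 13 (15.4%) passed as higher and 7 (53.8%) as lower (median -0.18), so the share lower and the median lay near those of all genes. Ugdh, which makes UDP-glucuronic acid, was lower at -1.13 and -1.19. The PAPS synthases, which make the sulfate donor, were near 0 or lower, with Papss2 at -0.48 and -0.52 (probes from -1.57 to 0.57) and Papss1 at 0.20 and 0.12, the latter not passing. Of the PAPS transporters, Slc35b3 was at 1.52 and 1.60, with probes at 0.48 and 2.63, and Slc35b2 passed as lower at -0.99 and -0.98. The lysosomal enzymes that remove these groups, Gusb (-1.29 and -1.28) and Arsa (-1.70 on both arrays), were lower.

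Of 20 other reductases, dehydrogenases and oxidases, 15 passed as higher and 4 as lower (median 0.44). Cbr2, a carbonyl reductase abundant in mouse lung, was at 5.41 and 5.48. Xdh, the molybdenum enzyme related to the aldehyde oxidases, was at 4.62 on replicate 1, with a mean of 4.81 ± 0.27. Akr1c14 (4.76 and 4.78) and the alcohol dehydrogenase Adh7 (4.18 and 4.32) were also high, as were Maob (3.13 and 3.15), Cyb5a (2.71 and 2.70) and Cbr3 (1.46 and 1.42). Adh1 averaged 3.61 and 3.26, but its 3 probes ran from -1.16 to 5.78 and thus lay past 2-fold in opposite directions. Dhrs4 was lower at -1.26 and -1.21. Nqo1, a widely used Nrf2 target, was at -0.03 and -0.06 and did not pass. Of 16 methyltransferases and other hydrolases, 10 passed as higher and 6 as lower (median 0.87). The indole methyltransferase Inmt was at 5.25 and 5.29 and the histamine methyltransferase Hnmt at 3.25 and 3.22. The paraoxonase Pon1 averaged 4.67 and 4.51, but its 2 probes lay at 0.61 and 8.58, so its mean is uncertain. As3mt was at 2.51 and 2.49, and Pon3, Nceh1, Gnmt and Bphl had mean log2 ratios from 1.04 to 1.88. Lower were Tpmt (-3.07 and -2.90), which methylates thiopurines, Nnmt (-1.73 and -1.66) and Lyplal1 (-1.51 and -1.43).

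Sensors of xenobiotics and oxidants gave 8 higher and 4 lower of 15 (median 0.40). Nr1i3 (the constitutive androstane receptor) was at 3.15 and 3.12, and Ppara was at 2.44 and 2.51. Ahr was at 1.20 and 1.18, just inside the receptor range, and its repressor Ahrr was lower at -1.82 and -1.88. Nfe2l2 passed at 0.58 and 0.74 and its inhibitor Keap1 passed as lower at -0.14 and -0.15, both inside the receptor range. The Keap1 mean of -0.14 lay above the medians of all genes (-0.21) and of the receptor genes (-0.42), so its direction depends on the centring. The small Maf gene Mafk was at 1.80 on both arrays, and Bach2 was inside the receptor range at 1.17 and 1.15. With receptor centring, 6 of the 13 donor genes passed as higher, beside 46.7% of all genes. Under it 2 of the 15 sensor genes and 3 of the 16 methyltransferase and hydrolase genes passed as lower, beside 26.8% of all genes.

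**Figure D5:**
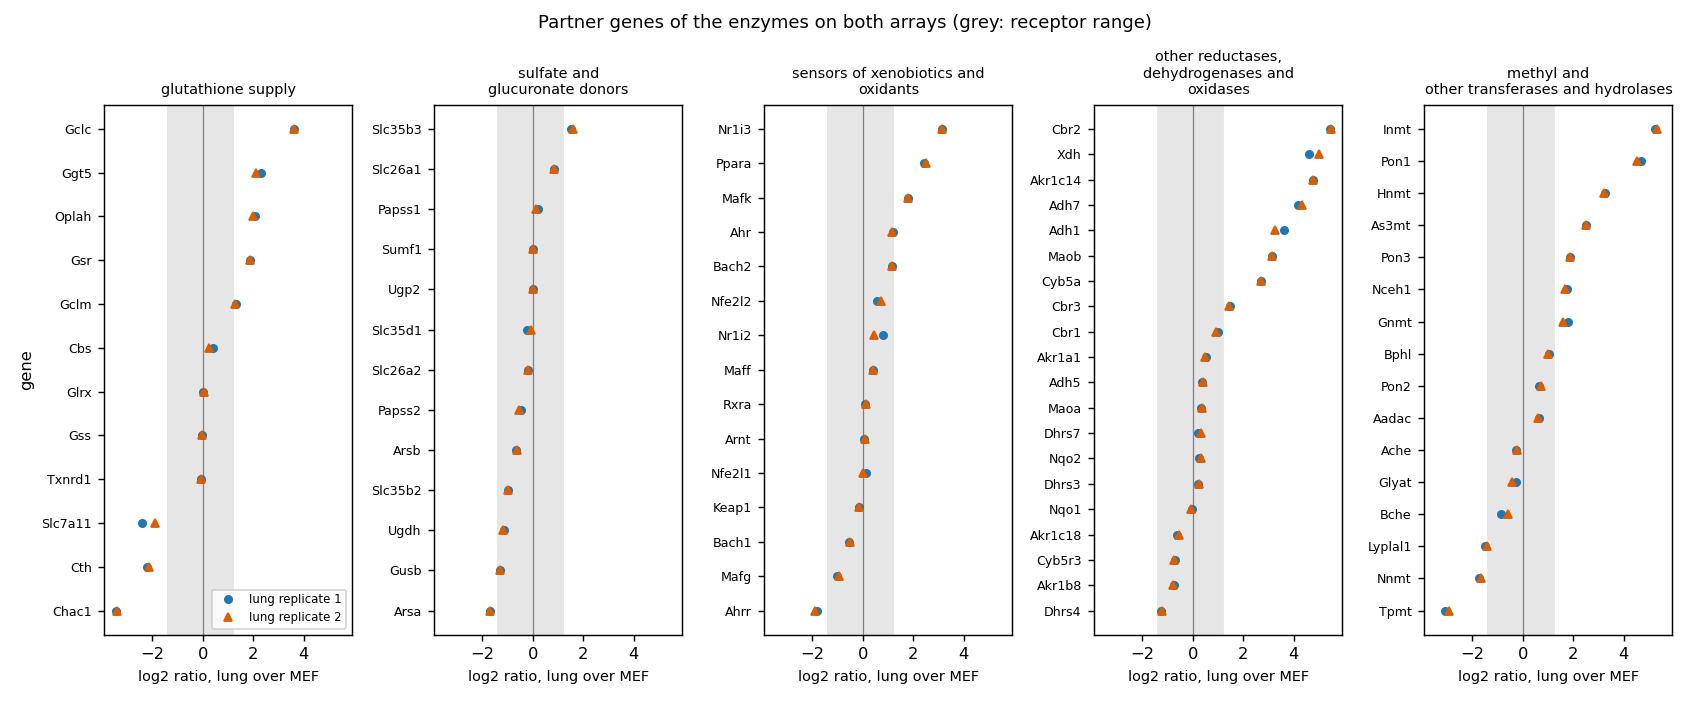
Log2 ratio of lung over MEF (horizontal axes) for the genes of the 5 partner lists (vertical axes), with lung replicate 1 as circles, lung replicate 2 as triangles and the receptor range in grey. Gclc stands at 3.61 and Cbr2 at 5.45 in mean log2 ratio at the top of their lists, while most genes of the donor list lie within the grey band.

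Markers of several cell types were higher in lung, and others were not. The 3 measured club cell markers had mean log2 ratios from 6.18 to 7.61, the 5 type 2 cell markers from 4.43 to 6.55, the 5 ciliated cell markers from 2.10 to 6.81, the 5 endothelial markers from 2.81 to 7.95, the 4 neutrophil markers from 6.24 to 9.88 and the 4 resident mesenchyme markers from 3.62 to 5.80. The 3 club and 5 type 2 markers were all among the genes that set the direction, so their sign is no separate result. The mesenchyme marker Inmt is also in the methyltransferase list. Of 4 macrophage markers, Marco and Mrc1 passed as higher and Adgre1 and Csf1r as lower, and the 5 markers of cultured fibroblasts lay from -7.62 to -6.59. Many of the enzymes are also known from liver. Of 8 measured hepatocyte markers, Alb (3.39) and Ahsg (4.30) were higher in lung and the other 6, among them Apoa1, Apoa2, Ttr and Fgb, lay between -0.39 and 0.37. The part of each cell type in the enzyme ratios was not tested.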

How the data were processed

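Two-colour Agilent arrays compared 2 uncultured mouse lung samples with cultured MEF. The authors deposited 1 log ratio per probe and array, with base and direction unstated and read here as log2 of lung over MEF. The submitters' processing notes name Agilent Feature Extraction. How background and dyes were corrected is not stated there. Probe medians were -0.28 and -0.14 on replicates 1 and 2, and values were used uncentred. Channel intensities were not used here, so which ratios rest on dim or saturated spots is unknown. Precision is limited by having 2 arrays.

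Of 41174 probes, 32664 carried 1 gene symbol, 45 several and 8465 none. Symbols were updated by Entrez identifier through RefSeq (32524 probes matched) and probes averaged into 19532 genes. limma 3.58.1 (R 4.3.3) compared each gene's mean with 0 (intercept-only fit, eBayes, two-sided, Benjamini-Hochberg over all genes, threshold 0.05), with 1 residual degree of freedom and 1.21 added by moderation. MEF RNA was only the reference channel, so its own spread is left out. The members and lists were chosen with earlier results of these data known. Values are printed for members 2-fold apart on both arrays, for the highest and lowest of each family, for those whose arrays differ by more than 1, for partner genes 2-fold apart, and for some others singled out after their values were seen. Alternatives covered centring, log base, probe choice, symbols, moderation and single arrays.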

Additional observations from a re-analysis of the deposited data

How the results depend on the processing

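Counts of enzyme genes passing as higher ranged from 40 (tested against a 2-fold change, 14.1% of all genes) to 72 (receptor centring, 46.7% of all genes) over the alternatives that kept the moderated test, and the count 2-fold higher from 42 to 50 (17.1% and 23.3% of all genes). The count passing as higher was 34 without moderation (12.5% of all genes). The count passing as lower was 4 without moderation (16.2%), 7 when tested against a 2-fold change (11.5%) and 13 with receptor centring (26.8%), against 23 (43.6%). The count 2-fold lower on both arrays was 6 with median centring (12% of all genes) and 4 with receptor centring (8.98%), against 10 (15.4%). The median log2 ratio of the enzyme genes (0.51) was 0.69 with median centring, 0.92 with receptor centring, 0.73 read as natural logarithms, 0.57 with the median probe and 0.73 with the probe furthest from 0. On single arrays it was 0.57 to 0.61, and 44 genes were 2-fold higher and 10 lower on each. Centring moved the median of all genes from -0.21 to -0.03 (median) and 0.20 (receptors). Of 61 genes named by rule, 23 no longer passed without moderation, among them Ces1g, Ces2g, Sult1d1, Aldh1l2, Ephx2 and Ugt1a9. With receptor centring, 3 of these 61 changed sign, Aox4 (0.14), Ces3b (0.15) and Fmo4 (0.0897), and Ces4a no longer passed (-0.07). With median centring, Fmo4 no longer passed (-0.14). On replicate 1 alone, Ces3b was at 0.33 and Sult3a2 at -0.21, opposite to their means, and on replicate 2 alone they were at -0.87 and 0.82. Receptor centring took the receptor median of each array (-0.41 and -0.42) from every gene, so means a little below 0 rose above it. Why Ces3b and Sult3a2 differed between the arrays was not tested. Lung and MEF were paired within each array, and the test of the ratio against 0 used that pairing. No other pairing was possible, since there is only 1 group. A test on a single array has no residual degrees of freedom and was not run.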
